A study of Homo sapiens with 18 samples.

Results

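The genes described are the neuropilins, semaphorins and plexins NRP1, NRP2, SEMA3A, SEMA3C, SEMA3F, PLXNA1, PLXNB2 and PLXND1, with the neuropilin ligand VEGFC, 9 of the 60675 genes listed for each library. They were selected on measured values, namely their TPM across the treatment groups with earlier results of these data known. Their differences between groups are therefore given as descriptions and carry no independent support. The cells were U87, an established human glioblastoma line, and their RNA was sequenced in 6 groups of 3 libraries. Cells received 100 nM of A34, A41, A80, A98 or bexarotene, or the vehicle ethanol, and RNA was taken 24 h later. Bexarotene is a clinically used agonist of the retinoid X receptors, nuclear receptors that act as partners of other nuclear receptors. A34, A41, A80 and A98 are rexinoids known here only by these codes, and ethanol and bexarotene served as controls. All groups share 1 cell line, and whether the 3 libraries of a treatment were grown as separate cultures is not stated in the labels. The p-values below therefore measure only the spread among libraries, and this spread may be technical.

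Neuropilins are single-pass membrane proteins with a short cytoplasmic tail that serve as co-receptors. They hold class 3 semaphorins, which are secreted guidance cues, on the cell surface and present them to plexins, whose cytoplasmic domains act on small GTPases and the actin cytoskeleton. Neuropilins also bind growth factors of the VEGF family and present them to VEGF receptors, NRP1 mainly with VEGFA and NRP2 mainly with VEGFC. In glioma these genes have been studied for cell migration, growth and the recruitment of vessels.

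Promoter sequence is shown for the pair of genes whose levels separated every rexinoid group from ethanol, NRP2 and SEMA3C. Each line gives 240 bases that end 10 bases before a RefSeq start site on build GRCh38.p14, written 5′ to 3′ on the strand of the gene, and capitals mark GC boxes (GGGCGG on either strand, overlaps counted). The NRP2 window is chr2:205682251-205682490 on the plus strand. It lies inside the deposited span of the gene, which starts at 205681990, and belongs to 1 start site, while 15 are annotated for NRP2. The SEMA3C window is chr7:80922400-80922639 on the minus strand and belongs to 1 of the start sites that RefSeq lists for this gene.
NRP2: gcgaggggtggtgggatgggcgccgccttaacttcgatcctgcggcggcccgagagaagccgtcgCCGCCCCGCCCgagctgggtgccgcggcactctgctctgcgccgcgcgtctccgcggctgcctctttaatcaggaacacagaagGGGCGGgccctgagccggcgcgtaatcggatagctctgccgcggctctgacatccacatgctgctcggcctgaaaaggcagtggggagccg
SEMA3C: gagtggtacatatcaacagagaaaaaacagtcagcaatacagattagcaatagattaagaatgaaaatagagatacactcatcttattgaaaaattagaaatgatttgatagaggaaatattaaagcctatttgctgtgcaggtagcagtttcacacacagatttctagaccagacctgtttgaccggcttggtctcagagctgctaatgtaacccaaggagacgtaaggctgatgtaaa
The NRP2 window held 3 GC boxes and was 69.6% G or C. The SEMA3C window shown held 0 GC boxes and was 37.1% G or C. The window of its other RefSeq start site, chr7:80919062-80919301, held 3 GC boxes, as many as that of NRP2, and was 79.2% G or C, so these features of SEMA3C depend on the start site. The core motif AGGTCA of nuclear receptor binding sites, searched on both strands, occurred 0 times in the NRP2 window and in both SEMA3C windows. Over 35116 windows of the same length in the RefSeq table, 11.7% held AGGTCA and 41.4% held a GC box. A missing match says only that these letters were not in the window. RefSeq promoters were matched for 7 of the 9 genes. NRP1 and SEMA3A were not matched.

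Depth was 1.31 to 3.89 gigabases of aligned sequence per library, and 13116 to 16630 genes reached 1 TPM. Levels are given as TPM (transcript abundance as a share of all transcripts) scaled by a median-of-ratios factor, since ribosomal RNA took a large part of 3 libraries: 56.1% of all TPM for A41 replicate 2, 44.9% for bexarotene replicate 1 and 35.5% for ethanol replicate 2, whereas its share elsewhere was 0.362% to 4.43%. CYP26B1, DHRS3, ABCA1 and SCD are genes that respond to retinoid or liver X receptor ligands. They passed the test against ethanol with all 5 rexinoids (4 of 4 genes, log2 fold changes of 0.83 to 3.58). Of all 18269 genes tested, 0.0383% (A98) to 0.744% (A41) passed in these comparisons. These 4 genes were named with earlier results of these data known, so the count is a description. Of 10 glioma and mesenchymal markers 7 averaged at least 1 scaled TPM over the 18 libraries, led by VIM at 4059 and CD44 at 1015. GFAP (0.788 scaled TPM), SOX2 (0.0152) and S100B (0.00973), from the same list, averaged less than 1. Of markers of other cell types, 0 of 5 for microglia and leukocytes, 0 of 3 for lymphatic endothelium, 2 of 7 for endothelium (KDR and TEK), 2 of 5 for oligodendrocytes (CNP at 29.2 scaled TPM and MBP at 1.24) and 5 of 7 for neurons averaged at least 1 scaled TPM.

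The 9 genes covered a wide span of levels in these cells. Values per length can be compared between genes, and the mean scaled TPM over the 18 libraries was 118 for NRP1, 90.1 for NRP2, 40.4 for PLXNB2, 30.4 for SEMA3C, 14.4 for VEGFC, 10.6 for PLXNA1, 2.92 for PLXND1, 2.26 for SEMA3A and 0.0420 for SEMA3F. Both neuropilins were among the more abundant RNAs, with NRP1 above 95.3% and NRP2 above 93.8% of the 18269 genes tested. SEMA3F did not reach 1 TPM in any library and was not tested, so 8 of the 9 genes passed the filter of at least 1 TPM in at least 3 libraries.

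**Figure D1:**
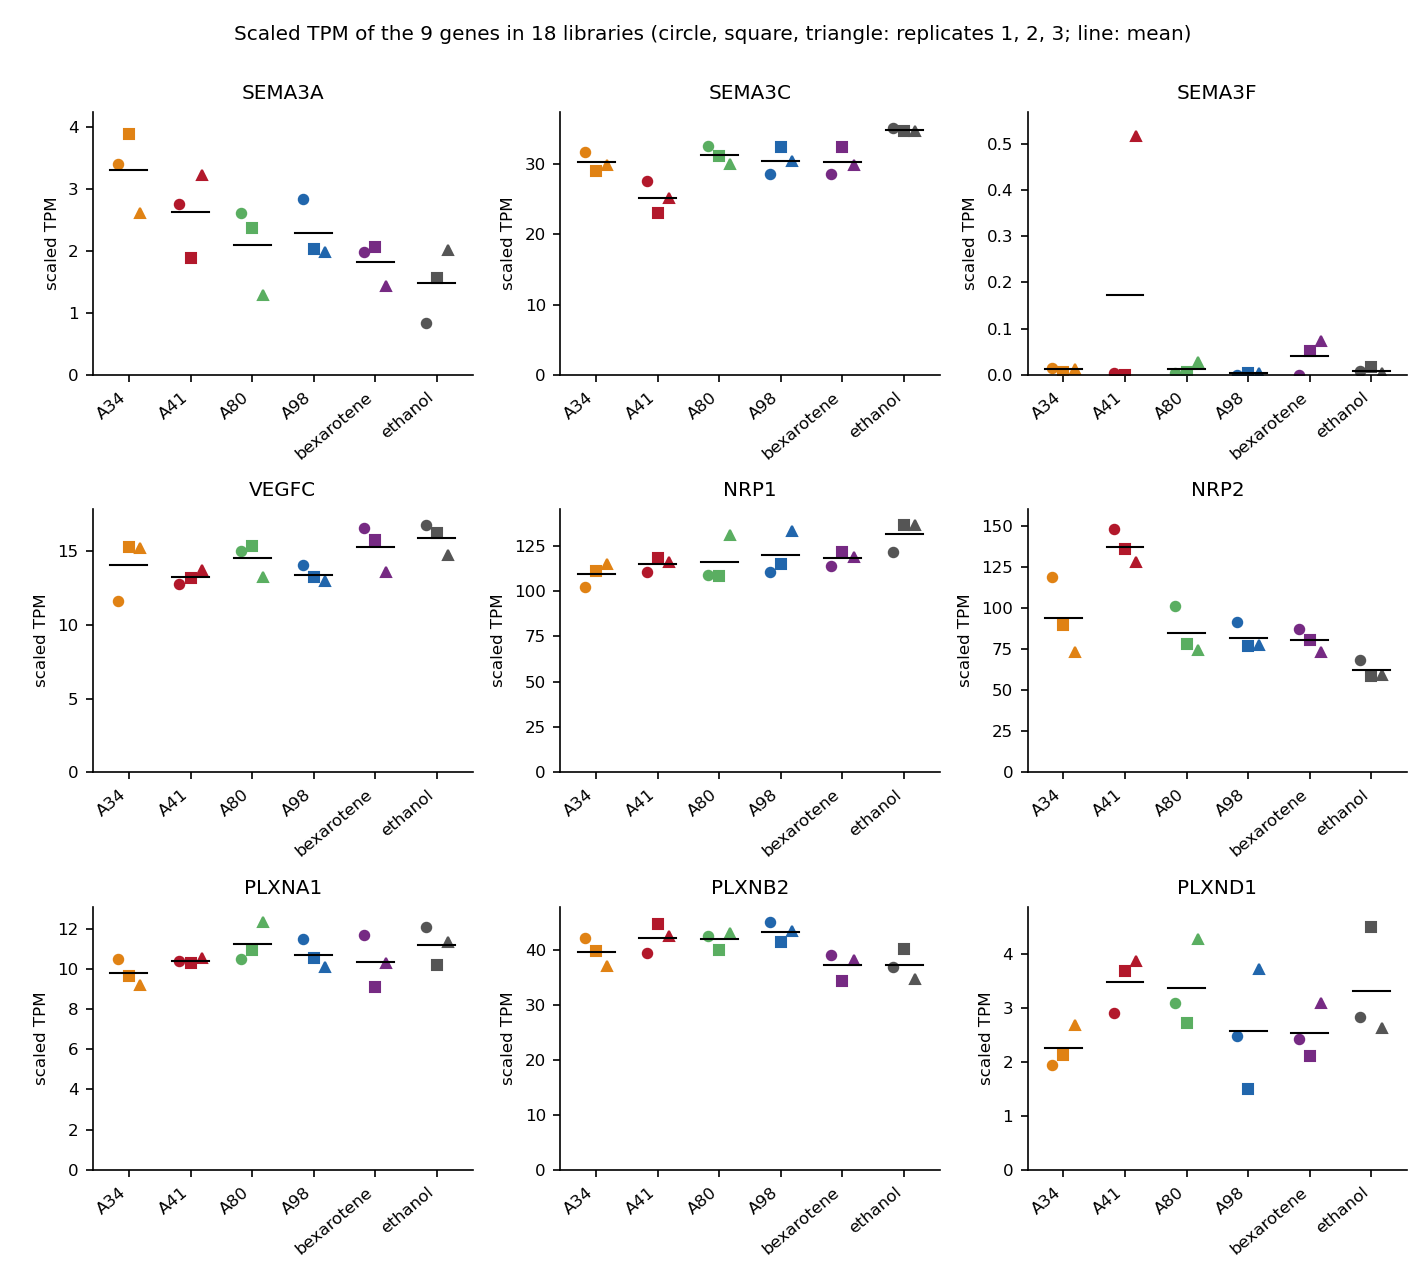
Scaled TPM (vertical axes, from 0) of the 9 genes in each of the 18 libraries, with A34, A41, A80, A98 and bexarotene left of ethanol. Circles, squares and triangles are replicates 1, 2 and 3 and black lines are group means. NRP2 lies between 128 and 148 in A41 libraries and between 58.7 and 68.5 in ethanol libraries, and SEMA3C lies below its 3 ethanol values in every rexinoid library.

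NRP2, the co-receptor of SEMA3F, SEMA3C and VEGFC, had the largest fold change of the 8 tested members on the log2(scaled TPM + 1) scale, with A41 against ethanol. By the ratio of means, which has no pseudocount, it stood at 2.21 there, beside 2.24 for the much lower SEMA3A with A34 against ethanol. The gene spans chr2:205681990-205798133 on the plus strand of GRCh38 (ENSG00000118257), and its values sum the exons of its transcripts. NRP2 had 148, 136 and 128 scaled TPM in the 3 A41 libraries and 119, 89.8 and 73.2 scaled TPM in the 3 A34 libraries, against 68.5, 58.7 and 59.3 scaled TPM in the 3 ethanol libraries. It had 101, 78.0 and 74.6 scaled TPM in A80 libraries, 91.5, 76.9 and 77.5 in A98 libraries and 87.3, 80.5 and 73.1 in bexarotene libraries. All 15 rexinoid libraries lay above all 3 ethanol libraries, and the 3 A41 libraries lay above the 12 libraries of the other rexinoids. The group means were 137 ± 10.2 in A41, 94.1 ± 23.3 in A34, 84.7 ± 14.6 in A80, 82.0 ± 8.25 in A98, 80.3 ± 7.11 in bexarotene and 62.2 ± 5.48 in ethanol (scaled TPM, SD, n = 3 each). In that order, the ranges of A34, A80, A98 and bexarotene overlapped from each to the next, while A41 and ethanol stood apart from their neighbours.

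On the log2(scaled TPM + 1) scale NRP2 was higher by 1.13 (SE 0.15, 95% interval 0.81 to 1.45) with A41 than with ethanol, with an adjusted p of 0.00096 from limma over all genes tested. Its log2 fold change against ethanol was 0.57 with A34 (SE 0.15, adjusted p = 0.22), 0.43 with A80 (adjusted p = 0.41), 0.39 with A98 (adjusted p = 0.71) and 0.36 with bexarotene (adjusted p = 0.83), none of which passed the limma threshold of 0.05. The mean of the 5 rexinoids was 0.58 above ethanol (SE 0.12, adjusted p = 0.064, limma). That value passed in 5 of 28 settings of the processing. These included the fits without A34 replicate 1 (adjusted p = 0.031) and without A34 replicate 3 (adjusted p = 0.019). Over all fits with single libraries left out, its limma adjusted p ran from 0.019 to 0.33. A fit that dropped A41 replicate 2, bexarotene replicate 1 and ethanol replicate 2 gave 0.53 (adjusted p = 0.33, limma). The A41 call ended only when TPM was used as deposited, without scaling (0.80, adjusted p = 0.82), where the median of all genes moved by -0.27 in A41 against ethanol. Relative to that median the NRP2 difference was 1.07 on the log2 scale.

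A41 and bexarotene, given at the same dose and time, differed in NRP2 by 0.77 on the log2 scale (SE 0.15, 95% interval 0.45 to 1.09), with no overlap between their libraries, but the adjusted p of 0.074 from limma missed the threshold. This NRP2 difference passed in 2 of 17 settings of the processing. Both were fits with a term for the replicate number, which was not taken to pair the libraries (see the end). With single libraries left out, its limma adjusted p was 0.13 to 0.29. A fit that dropped A41 replicate 2, bexarotene replicate 1 and ethanol replicate 2 gave 0.84 on the log2 scale (adjusted p = 0.32, limma). For the other codes the NRP2 difference from bexarotene was 0.20 with A34 (95% interval -0.12 to 0.52), 0.07 with A80 (-0.25 to 0.39) and 0.03 with A98 (-0.29 to 0.35). Differences among the coded rexinoids were not tested. The 7 endothelial markers, from a cell type that also carries NRP2, summed to 4.81 to 5.68 scaled TPM in A41 libraries and 3.93 to 5.12 in ethanol libraries, with PECAM1 at 0.650 and CDH5 at 0.0645 scaled TPM over all libraries.

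AC007362.1, a gene listed on the strand opposite to NRP2 and overlapping it, had 3.59, 3.58 and 5.22 scaled TPM in A41 libraries and 0.460, 0.576 and 1.85 scaled TPM in ethanol libraries. It was higher with A41 by 1.44 on the log2 scale (SE 0.27, adjusted p = 0.018, limma). Its highest value in the A34, A80, A98 and bexarotene libraries was 2.69 scaled TPM, in A98 replicate 1. The sources used here do not state how strand was handled, and whether exons of both genes overlap was not examined. Reads from any shared stretch may therefore have counted for either gene. AC007362.1 averaged 1.81 scaled TPM over the 18 libraries, against 90.1 for NRP2.

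**Figure D2:**
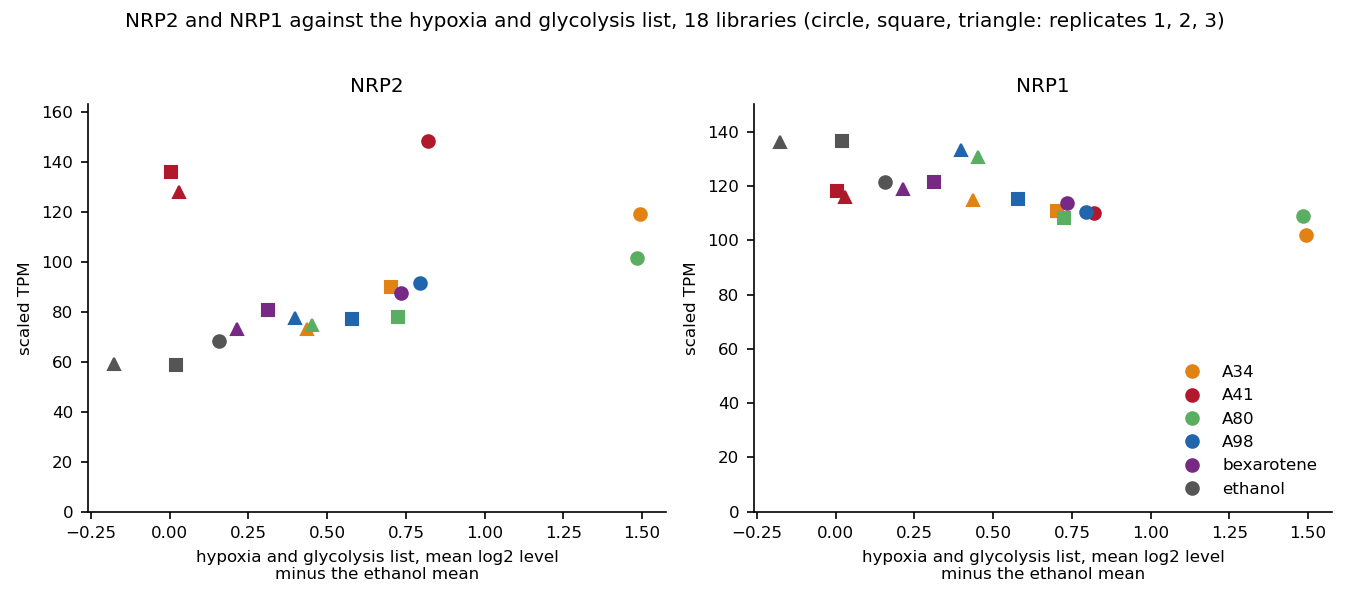
Scaled TPM of NRP2 (left) and NRP1 (right) in the 18 libraries against the mean log2 level of the 14 genes of the hypoxia and glycolysis list, given relative to the ethanol mean. Colours are groups and symbols are replicates 1, 2 and 3. The A41 libraries stand above the others at 128 to 148 scaled TPM of NRP2.

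Within groups, the highest NRP2 went with the highest value of a list of hypoxia and glycolysis genes. The list holds 14 genes, among them VEGFA, NDRG1, CA9 and LDHA, and is given as its mean log2 level relative to the ethanol mean. In 6 of 6 groups the library with the highest NRP2 was also the library with the highest value of this list. In 6 of 6 groups that library was replicate 1 by the titles, and in A98 its table carries the number 2. The list stood at 1.49, 0.70 and 0.44 in A34 replicates 1, 2 and 3, where NRP2 had 119, 89.8 and 73.2 scaled TPM. In A80 it stood at 1.48, 0.73 and 0.45, where NRP2 had 101, 78.0 and 74.6 scaled TPM. In both of these groups and in bexarotene the order of the libraries was the same for the list and for NRP2. In ethanol, A41 and A98, replicates 2 and 3 stood in opposite order for the list and for NRP2. The list ranged from 0.40 to 0.79 in A98, from 0.21 to 0.73 in bexarotene and from -0.18 to 0.16 in ethanol. A41 replicate 1 had 0.82 for the list and 148 scaled TPM of NRP2. A41 replicates 2 and 3 had 0.00 and 0.03 for the list, inside the ethanol range, and 136 and 128 scaled TPM of NRP2. The highest NRP2 in ethanol was 68.5 scaled TPM. The part of the list in the NRP2 differences of the 5 rexinoid groups was not tested. NRP1 ran the other way in most groups, with its lowest value in the library of highest list value in 5 of 6 groups.

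NRP1, the co-receptor of SEMA3A and VEGFA (chr10:33177492-33336262, minus strand, ENSG00000099250), had a lower mean in every rexinoid group than in ethanol, by a small amount that turned to 0.04 on the log2 scale for A98 with TPM as deposited. It had 102, 111 and 115 scaled TPM in A34 libraries and 110, 118 and 116 in A41 libraries, against 122, 137 and 136 scaled TPM in ethanol libraries. A34 and A41 did not overlap with ethanol. NRP1 had 109, 108 and 131 scaled TPM in A80 libraries, 111, 115 and 133 in A98 libraries and 114, 122 and 119 in bexarotene libraries, and each of these ranges overlapped with ethanol. The log2 fold changes against ethanol lay between -0.26 (A34, SE 0.09, adjusted p = 0.29, limma) and -0.14 (A98, adjusted p = 0.82, limma), and none passed the threshold.

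The ratio of both neuropilins does not depend on how a library is scaled. NRP2 RNA was 1.20 ± 0.13 times NRP1 RNA in A41 libraries (SD, n = 3), with values of 1.10 to 1.35, against 0.476 ± 0.076 in ethanol libraries, with values of 0.430 to 0.563. The ratio was 0.872 ± 0.27 in A34, 0.741 ± 0.18 in A80, 0.693 ± 0.12 in A98 and 0.682 ± 0.078 in bexarotene (SD, n = 3 each). NRP2 exceeded NRP1 in all 3 A41 libraries and in A34 replicate 1, and NRP1 exceeded NRP2 in the other 14 libraries. Over the 15 rexinoid libraries the lowest ratio was 0.571, just above the highest ethanol value of 0.563. The summed level of both neuropilins was 252 ± 7.57 scaled TPM in A41 and 194 ± 3.10 in ethanol, with means of 198 to 203 in the other rexinoid groups.

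**Figure D3:**
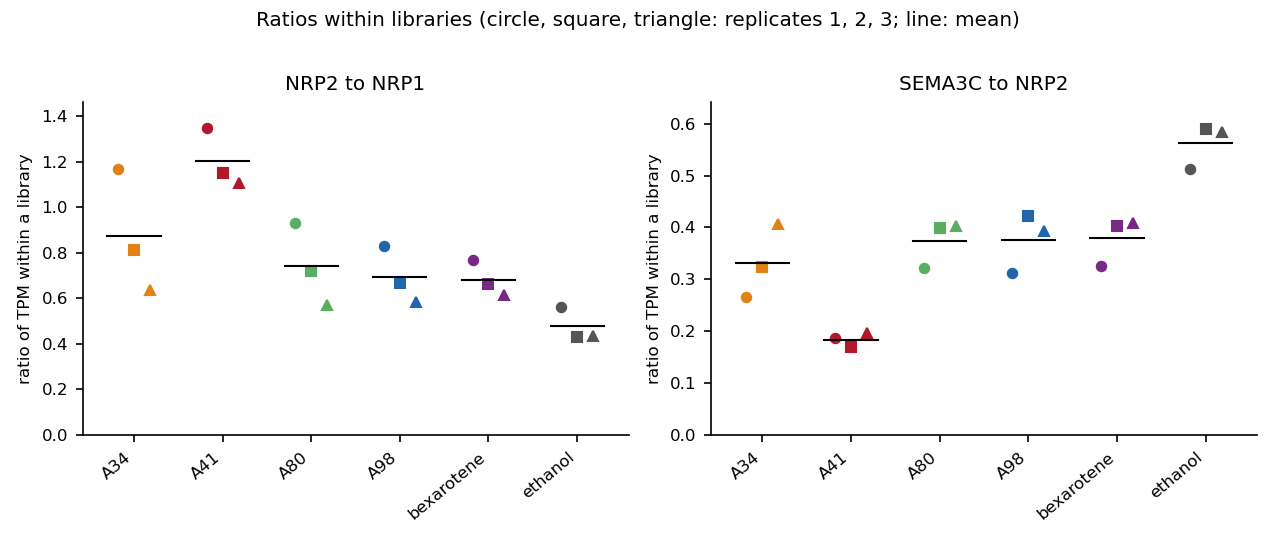
Ratio of NRP2 to NRP1 (left) and of SEMA3C to NRP2 (right) within each library, on axes from 0, with A34, A41, A80, A98 and bexarotene left of ethanol. Symbols are replicates 1, 2 and 3 and lines are means. The A41 mean is 1.20 for NRP2 to NRP1 and 0.184 for SEMA3C to NRP2, and the ethanol means are 0.476 and 0.562.

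Among the ligands, SEMA3C, a secreted class 3 semaphorin that binds both neuropilins, was lower with A41 and was, beside NRP2, the only member past the threshold in the 10 comparisons made. The gene lies at chr7:80742538-80922359 on the minus strand (ENSG00000075223). SEMA3C had 27.5, 23.0 and 25.1 scaled TPM in A41 libraries, against 35.1, 34.6 and 34.6 scaled TPM in ethanol libraries. It had 31.7, 29.0 and 29.8 scaled TPM in A34 libraries, 32.6, 31.2 and 30.0 in A80 libraries, 28.6, 32.4 and 30.4 in A98 libraries and 28.5, 32.4 and 29.9 in bexarotene libraries. All 15 rexinoid libraries lay below all 3 ethanol libraries, and the A41 libraries lay below the libraries of every other group. In the order of group means, A80, A98, bexarotene and A34 overlapped from each to the next, between A41 at 25.2 ± 2.29 and ethanol at 34.8 ± 0.246 scaled TPM (SD, n = 3 each).

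SEMA3C fell by 0.45 on the log2 scale with A41 against ethanol (SE 0.08, 95% interval -0.61 to -0.29, adjusted p = 0.0074, limma). Without the 3 libraries rich in ribosomal RNA the value was -0.40 (adjusted p = 0.11), with A41 and ethanol alone in the fit it was -0.45 (adjusted p = 0.17), and with TPM as deposited it was -0.77 (adjusted p = 0.82), so the limma call ended under each of these settings. With the other rexinoids its log2 fold change against ethanol was -0.20 (A34), -0.15 (A80), -0.19 (A98) and -0.20 (bexarotene), with limma adjusted p values of 0.37 to 0.83. The A41 libraries also lay below the bexarotene libraries, by 0.26 on the log2 scale, and the adjusted p of 0.42 from limma missed the threshold.

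The ratio of SEMA3C to its co-receptor NRP2 was 0.184 ± 0.014 in A41 libraries and 0.562 ± 0.043 in ethanol libraries (SD, n = 3 each). Over the 15 rexinoid libraries it ran from 0.169 to 0.422, below the ethanol range of 0.512 to 0.590. The sums of the glioma and mesenchymal list and of the neuronal list were lower in A41 than in ethanol. The 10 glioma and mesenchymal markers summed to 4855 to 5073 scaled TPM in A41 libraries, 5478 to 5818 in A34, 5515 to 5790 in A80, 5725 to 5896 in A98 and 5335 to 5629 in bexarotene, against 5996 to 6198 scaled TPM in ethanol libraries. Every rexinoid group lay below ethanol for this sum, as it did for SEMA3C, and A41 lay lowest. VIM, at 4059 scaled TPM over all libraries, made up most of this sum. The 7 neuronal markers summed to 85.6 to 96.6 scaled TPM in A41, 97.9 to 103 in A34, 98.3 to 122 in A80, 98.9 to 112 in A98 and 96.0 to 105 in bexarotene, against 105 to 112 in ethanol. The A80 and A98 ranges of the neuronal sum overlapped with ethanol. Of the neuronal markers 5 of 7 averaged at least 1 scaled TPM, led by TUBB3 at 69.1, and the defining markers RBFOX3 (0.187) and SLC17A7 (0.0230) were near 0. Mean sums were higher in A41 than in ethanol for oligodendrocyte (34.5 against 31.0) and endothelial markers (5.18 against 4.58), with overlapping ranges. They were lower for lymphatic endothelial (0.415 against 0.502) and microglial and leukocyte markers (0.156 against 0.209). All libraries came from the U87 line. Within it, fewer cells in a given state and less RNA per cell cannot be told apart in bulk RNA. The part of these markers in the SEMA3C difference was not tested.

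SEMA3A, the class 3 semaphorin that signals through NRP1 and class A plexins (chr7:83955777-84492724, minus strand, ENSG00000075213), was a low transcript in these cells. It had 3.40, 3.89 and 2.60 scaled TPM in A34 libraries and 2.75, 1.88 and 3.22 in A41 libraries, against 0.840, 1.56 and 2.02 scaled TPM in ethanol libraries. The A34 libraries lay above the ethanol libraries and above the bexarotene libraries, which had 1.98, 2.05 and 1.44 scaled TPM. SEMA3A had 2.61, 2.37 and 1.29 scaled TPM in A80 libraries and 2.83, 2.04 and 1.98 in A98 libraries, both overlapping with ethanol. The ratio of means was 2.24 for A34 over ethanol and 1.78 for A41 over ethanol, larger than the folds on the log2(scaled TPM + 1) scale because the pseudocount of 1 is close to these levels. On that scale the difference was 0.82 with A34 (SE 0.22, 95% interval 0.34 to 1.29, adjusted p = 0.22, limma) and 0.56 with A41 (adjusted p = 0.39, limma). SEMA3A was positive against ethanol in 5 of 5 comparisons and passed the threshold in none.

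SEMA3F, the ligand best known for binding NRP2 (chr3:50155045-50189075, plus strand, ENSG00000001617), was near the lower limit of these tables. It was listed at 0 in 3 libraries, 1 each of A41, A98 and bexarotene. A41 replicate 3 had 0.517 scaled TPM, and the highest value in the other 17 libraries was 0.0732. The A41 mean of 0.174 rested on that single library, and the ethanol libraries had 0.00727, 0.0174 and 0.00296 scaled TPM. SEMA3F-AS1 overlaps its span on the opposite strand, with a mean of 0.550 scaled TPM over the 18 libraries. Overlap of exons was not examined for this pair either.

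VEGFC, the growth factor of lymphatic vessels that NRP2 binds (chr4:176683538-176792922, minus strand, ENSG00000150630), was present at moderate levels. It had 12.8, 13.2 and 13.8 scaled TPM in A41 libraries and 14.0, 13.2 and 12.9 in A98 libraries, against 16.8, 16.2 and 14.8 scaled TPM in ethanol libraries. Neither group overlapped with ethanol. VEGFC had 11.6, 15.3 and 15.2 scaled TPM in A34 libraries, 15.0, 15.4 and 13.2 in A80 libraries and 16.5, 15.8 and 13.6 in bexarotene libraries. The log2 fold changes against ethanol ran from -0.25 with A41 (SE 0.10, adjusted p = 0.42, limma) to -0.06 with bexarotene (adjusted p = 0.97, limma), and 0 of the 5 passed. FLT4, the receptor that VEGFC activates on lymphatic endothelium, averaged 0.0154 scaled TPM, and KDR, its other receptor, averaged 1.89 scaled TPM.

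**Figure D4:**
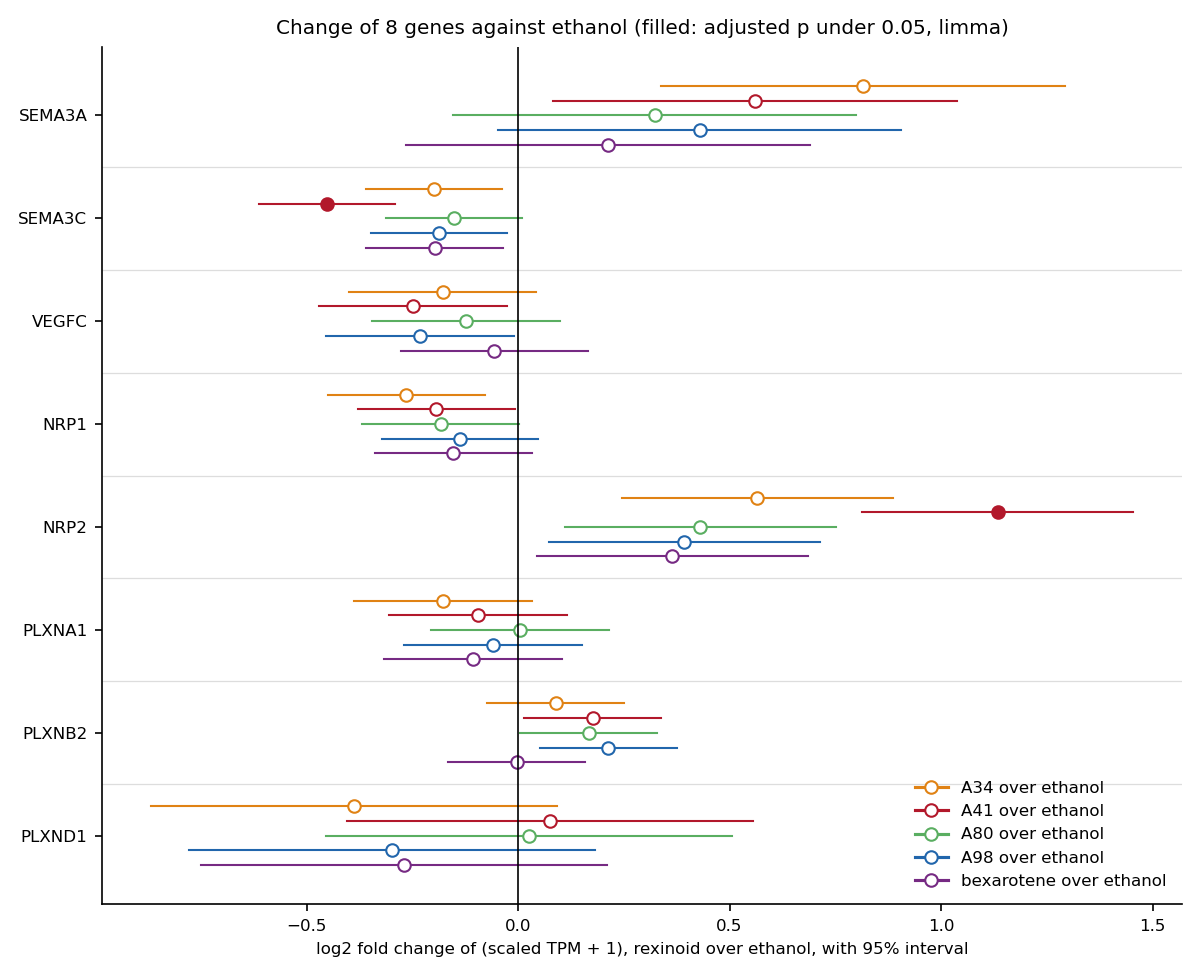
Log2 fold change of (scaled TPM + 1) for the 8 tested genes, each rexinoid over ethanol, with 95% intervals from the limma fit. Filled points have an adjusted p under 0.05. The filled points are A41 for NRP2 at 1.13 and A41 for SEMA3C at -0.45, and the 3 plexins have 0 filled points.

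The 3 plexins, the signalling receptors of this system, differed little between groups. PLXNB2, a receptor of class 4 semaphorins (chr22:50274979-50307646, minus strand, ENSG00000196576), was the most abundant. It had 45.2, 41.6 and 43.5 scaled TPM in A98 libraries, against 36.9, 40.3 and 34.8 scaled TPM in ethanol libraries. These groups did not overlap, and the log2 difference was 0.21 (SE 0.08, adjusted p = 0.68, limma). PLXNB2 means were 42.3 ± 2.63 in A41, 42.0 ± 1.65 in A80 and 39.8 ± 2.56 in A34, against 37.3 ± 2.46 in bexarotene and 37.4 ± 2.75 in ethanol (scaled TPM, SD, n = 3 each). The A41, A80 and A98 libraries each lay above all bexarotene libraries, with limma adjusted p values of 0.76, 0.80 and 0.69.

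PLXNA1, a partner of both neuropilins for class 3 semaphorins (chr3:126988594-127037392, plus strand, ENSG00000114554), ranged from 9.12 to 12.3 scaled TPM over all 18 libraries. Each rexinoid group overlapped with ethanol, and its log2 fold changes lay between -0.18 and 0.00. PLXND1, a receptor of SEMA3E that also takes part in SEMA3C signalling in mouse (chr3:129555214-129606676, minus strand, ENSG00000004399), was low and variable, from 1.49 to 4.49 scaled TPM. The lowest value was in A98 replicate 2 and the highest in ethanol replicate 2. Its log2 fold changes against ethanol ran from -0.39 with A34 to 0.08 with A41, with standard errors of 0.23, and 0 of 5 passed the limma threshold. RN7SL752P, listed on the opposite strand within PLXND1, averaged 25.7 scaled TPM over the 18 libraries, against 2.92 for PLXND1. For this pair, too, overlap of exons was not examined, so whether reads of the one counted for the other is not known. The log2 fold change of RN7SL752P with bexarotene against ethanol was 1.47 (SE 0.52, adjusted p = 0.83, limma).

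Counted over the 8 tested members, 2 passed the threshold in A41 against ethanol, NRP2 higher and SEMA3C lower. Of all 18269 genes 0.744% passed in that comparison. No member passed with A34 (0.0766% of all genes), A80 (0.0493%), A98 (0.0383%) or bexarotene (0.0602%) against ethanol, or for the mean of the 5 rexinoids against ethanol (0.208%). Likewise 0 members passed in A41 against bexarotene (0.109% of all genes) or in A98 against bexarotene (0.00547%). In A34 against bexarotene and in A80 against bexarotene 0 members and 0% of all genes passed, while 937 and 1096 genes had an unadjusted limma p under 0.05.

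Groups that did not overlap were counted in the same way. The 4 members (NRP1, NRP2, SEMA3C and VEGFC) did not overlap between A41 and ethanol, where 15.9% of all genes tested did not overlap. There were 4 such members with A34 (NRP1, NRP2, SEMA3A and SEMA3C, against 16.8% of all genes) and 4 with A98 (NRP2, SEMA3C, PLXNB2 and VEGFC, against 16.7%). The number was 2 with A80 (16.2% of all genes) and 2 with bexarotene (12.7%), in both cases NRP2 and SEMA3C. All 5 comparisons share the same 3 ethanol libraries. The fold changes were positive in 5 of 5 comparisons for NRP2 and SEMA3A and negative in 5 of 5 for SEMA3C and VEGFC, also with TPM as deposited. NRP1 was negative in 5 of 5 with scaled TPM and in 4 of 5 as deposited. PLXNB2 was positive in 4 of 5 with scaled TPM and in 3 of 5 as deposited.

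**Figure D5:**
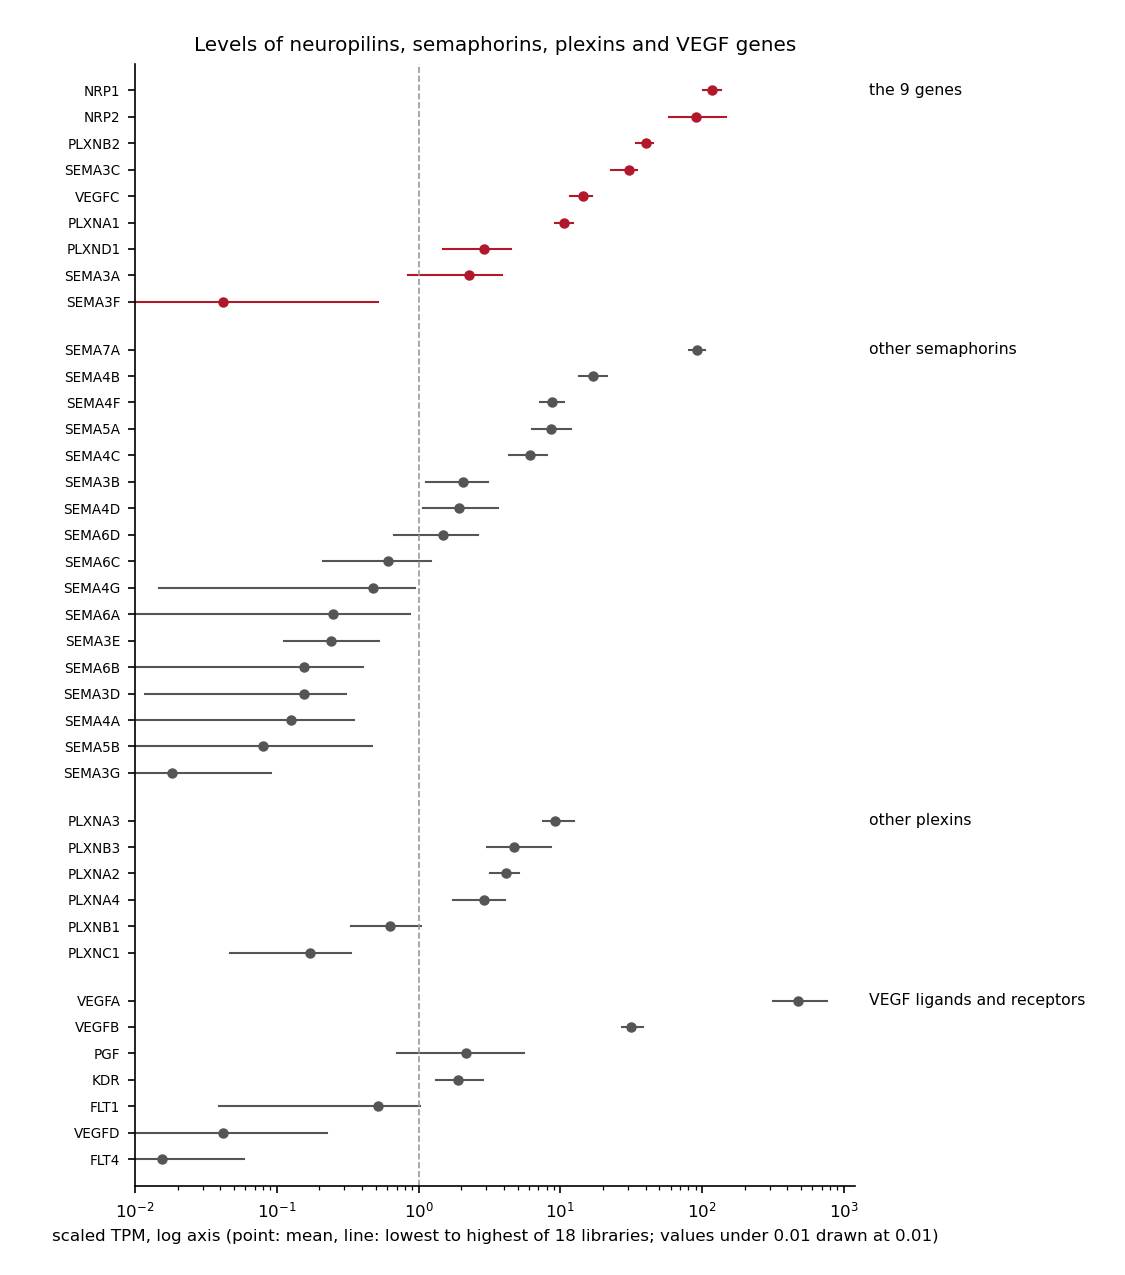
Mean scaled TPM over the 18 libraries (points, log axis) with the lowest and highest library (lines) for the 9 genes in red and for the other semaphorins, other plexins and VEGF genes in grey. The dashed line is at 1 scaled TPM. NRP1 and NRP2 lead the 9 genes at 118 and 90.1, SEMA7A leads the other semaphorins at 92.5 and VEGFA leads the VEGF genes at 475.

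The rest of the pathway was taken from gene lists chosen with earlier results of these data known, so their counts are descriptions. Of 17 other semaphorins 9 were tested and 0 passed in any of the 5 comparisons with ethanol. The most abundant were SEMA7A, a membrane-anchored semaphorin, at 92.5 scaled TPM, SEMA4B at 17.1 and SEMA4F at 8.80. SEMA3E, the direct ligand of PLXND1, averaged 0.241 scaled TPM. Of 6 other plexins 4 were tested and 0 passed, and PLXNA3 at 9.16 scaled TPM, PLXNB3 at 4.73 and PLXNA2 at 4.16 led them. In A41 against ethanol the median log2 fold change was 0.04 over the other semaphorins and 0.12 over the other plexins, against -0.01 over all genes tested.

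Of 7 VEGF ligands and receptors other than VEGFC 4 were tested, and 0 passed against ethanol. VEGFA, the main ligand of NRP1 in this family, averaged 475 scaled TPM. It had 455 ± 57.8 scaled TPM in A41, 573 ± 140 in A34, 582 ± 151 in A80, 451 ± 70.5 in A98 and 455 ± 93.1 in bexarotene, against 333 ± 23.2 in ethanol (SD, n = 3 each). The largest of these differences was 0.78 on the log2 scale with A80 (SE 0.20, adjusted p = 0.25, limma). VEGFA is itself a gene of the hypoxia and glycolysis list. Next in level were VEGFB at 31.7 scaled TPM and PGF at 2.18. PGF had 3.43 ± 1.96 scaled TPM in A34 and 3.10 ± 1.55 in A80, against 0.925 ± 0.258 in ethanol (SD, n = 3 each). Its other means were 1.30 ± 0.834 in A41, 2.17 ± 0.567 in A98 and 2.14 ± 0.774 in bexarotene. Of 8 proteases and cofactors that process VEGFC and semaphorins 6 were tested and 0 passed, with FURIN at 32.0 scaled TPM, ADAM10 at 31.4 and ADAM17 at 19.6 the most abundant.

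Of 38 partners and signalling genes of neuropilins and plexins 32 were tested, and 2 passed, both higher with A41 than with ethanol. Of all genes tested 0.744% passed in that comparison. LIMK1, the kinase that phosphorylates the actin-severing protein cofilin, had 163 ± 15.5 scaled TPM in A41 and 109 ± 2.01 in ethanol (SD, n = 3 each), a log2 difference of 0.57 (SE 0.09, adjusted p = 0.0032, limma). MET, the hepatocyte growth factor receptor that associates with class B plexins, had 96.8 ± 6.99 scaled TPM in A41 and 77.8 ± 2.08 in ethanol, a log2 difference of 0.31 (SE 0.06, adjusted p = 0.021, limma). Against bexarotene, A41 was higher by 0.43 for LIMK1 and 0.30 for MET, with limma adjusted p values of 0.079 and 0.084. The median over this list was -0.01 in A41 against ethanol, and it was -0.01 over all genes tested. GIPC1, the adaptor that binds the cytoplasmic tail of neuropilins, averaged 93.6 scaled TPM, and CFL1 (825 scaled TPM), TAGLN2 (538) and RHOA (408) were the most abundant of the list.

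The genes whose pattern was most like that of a member were ranked by Pearson's r of log2 levels over the same 18 libraries, which share groups, scaling and depth, and r is given as a description. For NRP2 the nearest was ITGB3, the integrin beta subunit of the vitronectin receptor, with r = 0.985, followed by CYP26B1, a retinoic acid hydroxylase, with r = 0.948. For SEMA3C they were HMGA2, a chromatin protein, with r = 0.913 and CDC42EP3, an effector of the GTPase CDC42, with r = 0.898. An r over 0.8 was reached by 54 genes for NRP2, 25 for SEMA3C, 9 for NRP1, 7 for SEMA3A, 6 for VEGFC, 2 for PLXNB2, 1 for PLXNA1 and 0 for PLXND1. The nearest gene was TMEM199 for NRP1 (r = 0.862), TMEM254 for SEMA3A (r = 0.844), RPL5P5 for VEGFC (r = 0.853), DIS3L2 for PLXNB2 (r = 0.827), NEURL4 for PLXNA1 (r = 0.815) and TMEM86B for PLXND1 (r = 0.786).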

How the data were processed

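Per the labels' protocols, total RNA of the 18 libraries was depleted of ribosomal RNA and sequenced as paired reads. The build was GRCh38 and the tools included STAR, StringTie and MultiQC, per the submitters' processing notes. Their versions, the annotation release and the strand setting were not given in the sources used. The deposited tables give per gene TPM, FPKM and coverage, a signal in reads per base, per the file headers. TPM was analysed, and coverage over FPKM gave depth. Entries repeating a gene ID (2 to 3 per library) were summed.

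TPM was divided by median-of-ratios factors (0.413 to 1.20, from 21776 genes above 0 in every library). Genes with at least 1 TPM in 3 libraries were tested with limma 3.58.1 in R 4.3.3, on log2(scaled TPM + 1), in 1 fit of all libraries with 12 residual degrees of freedom and a trend. Tests are two-sided, adjusted by Benjamini-Hochberg over 18269 genes per comparison. The log2 scale understates changes of low genes. Counts were not used here, so no count model was run. The fit was tested on simulated data. No libraries were identical (0 pairs). Groups and replicate numbers follow the labels, although tables of A98 carry another code. The numbers in the table names differ in part from the titles in every group. For A98 replicates 1, 2 and 3 they are 2, 3 and 4.

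The members, the lists and the 4 response genes CYP26B1, DHRS3, ABCA1 and SCD were chosen with earlier results of these data known. Besides members, the text names list genes past the threshold against ethanol, the 3 most abundant genes per list and the most similar genes. List genes named for their role (SEMA3E, FLT4, KDR, GIPC1) and genes overlapping a member were added after their values were seen.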

Additional observations from a re-analysis of the deposited data

How the results depend on the processing

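Over the 17 settings of A41 against ethanol, NRP2 kept its limma call in 16 (log2 fold change 0.80 to 1.20) and SEMA3C in 14 (-0.77 to -0.39). The count of members past the threshold was 2, and it was 0 with TPM as deposited (4 genes in all, against 136), 1 with only the 2 groups in the fit (35 genes) and 1 when the 3 libraries with much ribosomal RNA were left out (48 genes). Leaving out single libraries kept that count at 2, with 73 to 114 genes in all. For the mean of the 5 rexinoids the count was 0 and became 1, NRP2, with a filter of 5 TPM (adjusted p = 0.048, limma). Leaving out single libraries there gave 0 to 1 members, and 1 without A34 replicate 1 or without A34 replicate 3. No called value reversed. SEMA3F was below the filter. The cause of these shifts was not tested.

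The replicate numbers of the titles were not taken to pair the libraries, since 11 of 45 pairs of same-numbered libraries had deviations with r over 0.1 (median 0.029), where every pair was required. There were hints of pairing in the data, not in the design. Of 18 libraries 10 were closest to their own number, and NRP2 was highest in replicate 1 of the titles in 6 of 6 groups. With a replicate block from the titles, 1 member passed in A34 against ethanol (181 genes in all, against 14), 1 in A80 against ethanol (118, against 9), 1 in A41 against bexarotene (31, against 20) and 1 for the mean of the 5 rexinoids (155, against 38). That member was NRP2, with limma adjusted p values of 0.0071, 0.039, 0.0013 and 0.00085. With a replicate block from the table names the counts were 1, 0, 1 and 1. In A41 against ethanol both blocks gave 2 members.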
